A study of Drosophila melanogaster with 3 samples.

Results

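Small nuclear RNA (snRNA) genes were taken as all genes of the Ensembl BDGP6 annotation on the nuclear chromosomes whose symbol begins with snRNA, which gave 32 genes among 18277 annotated genes other than transposable elements. The rule used names alone and no measured value, but it was set with earlier results of these data known. Of the 32, 24 make RNAs of the major spliceosome (5 U1, 6 U2, 3 U4, 7 U5 and 3 U6 genes) and 4 make those of the minor spliceosome (U11, U12, U4atac and U6atac). The other 4 are U7, a pair of 7SK genes and a gene named LU, so the set is wider than the spliceosome. Genes lay on 2L (16), 3R (10), 3L (4) and X (2).

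The data are chromatin immunoprecipitation and sequencing (ChIP-seq) peak lists from whole embryos, 0 to 24 h old and of both sexes, of a fly line that stably expresses CG7839 with GFP at its C-terminus, precipitated through the GFP. CG7839 is Noc1 in the annotation, a nucleolar protein known from yeast for its part in making the large ribosomal subunit. There was 1 group of 3 biological replicates, all from the same transgenic line, so the design holds no contrast between groups. The promoter that drives the tagged protein is not stated in the labels. The authors' lists were made against a control, which was not analysed here. Each replicate list and the pooled list hold 30000 summits, the IDR list (thresholded on the irreproducible discovery rate) holds 8188, and read depth is unknown from these files. The 8188 IDR summits are the pooled summits of largest signal value, a value of the authors whose scale is not stated, and ranks below order peaks by it within a list with 1 as the largest. The lists carry no expression values, so the embryo label could not be checked against marker genes.

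Spliceosomal snRNAs form the RNA core of the particles that remove introns. U1 pairs with the start of the intron and U2 with the branch point. U4 escorts U6 in base-paired form, U6 then joins the catalytic core, and U5 holds the exon ends. U11, U12, U4atac and U6atac do the same for a rare class of introns, U7 guides the cutting of histone mRNA ends, and 7SK RNA holds the elongation kinase P-TEFb inactive. RNA polymerase II transcribes most of these genes, and RNA polymerase III transcribes U6, U6atac and 7SK. In Drosophila both kinds of promoter carry an element called PSEA, bound by the factor SNAPc, and polymerase III snRNA promoters add a TATA box.

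The upstream sequences show which feature the genes with and without peaks share. The first set holds the 75 bases before the start of the 8 genes with an IDR summit within 500 bp. All are from the RefSeq assembly on dm6 coordinates and are written 5′ to 3′ on the gene's strand. Capitals mark matches to ATTCNCAA, the core of the conserved element, and runs of TATA that lie 35 to 20 bases upstream.
U1:21D (chr2L:901655-901729, minus strand): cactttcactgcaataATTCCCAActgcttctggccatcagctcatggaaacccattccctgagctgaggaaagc
U1:95Ca (chr3R:23859631-23859705, minus strand): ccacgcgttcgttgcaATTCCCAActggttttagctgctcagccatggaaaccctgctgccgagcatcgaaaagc
U2:34ABb (chr2L:13215764-13215838, plus strand): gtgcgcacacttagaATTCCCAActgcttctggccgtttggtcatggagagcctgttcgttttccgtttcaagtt
U4:39B (chr2L:21215179-21215253, minus strand): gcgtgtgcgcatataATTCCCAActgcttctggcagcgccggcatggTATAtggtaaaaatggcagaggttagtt
U5:63BC (chr3L:3090726-3090800, plus strand): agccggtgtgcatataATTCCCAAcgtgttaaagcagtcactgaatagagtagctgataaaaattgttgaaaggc
U6:96Ab (chr3R:24556617-24556691, plus strand): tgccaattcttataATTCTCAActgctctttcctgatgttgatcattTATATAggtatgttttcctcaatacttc
U6:96Ac (chr3R:24557140-24557214, plus strand): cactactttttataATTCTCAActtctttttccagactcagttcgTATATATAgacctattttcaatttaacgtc
7SKa (chr3R:7474997-7475071, minus strand): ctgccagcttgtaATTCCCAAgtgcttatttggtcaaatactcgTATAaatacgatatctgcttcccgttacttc

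The second set holds 8 of the genes of the same types without an IDR summit. It is not complete and has no U5 gene. It is shown because 7 of the 8 promoters carry the same element and 7SKb does not.
U1:82Eb (chr3R:4948097-4948171, minus strand): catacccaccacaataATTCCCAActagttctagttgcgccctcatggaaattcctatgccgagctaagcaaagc
U1:95Cb (chr3R:23827795-23827869, plus strand): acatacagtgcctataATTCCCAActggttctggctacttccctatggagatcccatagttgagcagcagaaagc
U1:95Cc (chr3R:23826259-23826333, plus strand): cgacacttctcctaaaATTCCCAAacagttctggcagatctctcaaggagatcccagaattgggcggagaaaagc
U2:34ABa (chr2L:13212117-13212191, minus strand): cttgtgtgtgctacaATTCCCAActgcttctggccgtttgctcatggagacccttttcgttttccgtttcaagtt
U2:34ABc (chr2L:13244562-13244636, minus strand): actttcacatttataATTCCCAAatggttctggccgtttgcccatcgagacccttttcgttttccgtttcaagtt
U4:25F (chr2L:5565544-5565618, plus strand): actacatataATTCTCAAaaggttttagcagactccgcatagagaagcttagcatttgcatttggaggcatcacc
U6:96Aa (chr3R:24556013-24556087, plus strand): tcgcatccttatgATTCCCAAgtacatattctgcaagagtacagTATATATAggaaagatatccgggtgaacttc
7SKb (chr3R:23432794-23432868, plus strand): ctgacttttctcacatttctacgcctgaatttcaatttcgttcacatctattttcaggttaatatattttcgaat

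The core ATTCNCAA was present on the gene strand in the 100 bases upstream of 31 of the 32 genes (96.9%), against 233 of all 18277 genes (1.27%, the members included). The 8-base pattern was written after these promoters were seen, so its share among the members is a description of them. The exception was 7SKb. The element was in 8 of 8 genes with an IDR summit and in 23 of the 24 without one, so its presence did not separate them. Its first base lay 59 to 62 bases upstream (median 60) in genes with an IDR summit and 56 to 65 bases upstream (median 59) in the other genes that hold it. It read ATTCCCAA in 26 genes and ATTCTCAA in 5.

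**Figure D1:**
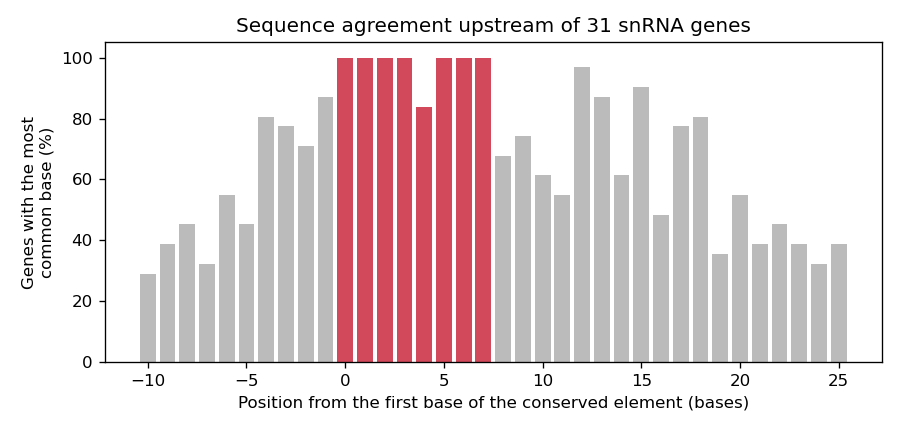
Share of the 31 snRNA genes that carry the most common base at each position (vertical axis, percent), with the genes aligned at the first base of the conserved core (horizontal axis, bases, the 8 core positions in red). By choice of the pattern 7 core positions stand at 100%, and outside it agreement reaches 96.8% at position 12 and 90.3% at position 15.

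Agreement extended past the searched letters. With the 31 genes aligned at the core, the base 12 positions from its first base was shared by 96.8% of genes and that at 15 by 90.3%. TATA at 35 to 20 bases upstream was found in 6 genes. These were the 3 U6 genes, U6atac and 7SKa, all made by polymerase III, and U4:39B. The share of all genes with TATA in this window was 12.7%. Of the 6 snRNA genes 4 had an IDR summit, and the 4 include neighbouring U6 genes that share a summit. How many of all genes with TATA there had an IDR summit was not counted, so the 4 are not read as many or few. TATAAA anywhere in the 100 bases on either strand was in 5 of 32 genes (15.6%) against 18.9% of all genes, and some of these matches overlap the TATA runs above. GAGAG, a core of GAGA factor sites, was in 3 (9.38%) against 12.6%, on either strand. TATCGATA, the palindrome bound by DREF, was in 0 of 32, so that 3 counts would set an upper limit of 9.38%, against 4.9% of all genes.

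A summit of the IDR list lay at most 500 bp from the start of 8 of the 32 snRNA genes (25%, exact binomial 95% interval 11.5 to 43.4%), beside 17.7% of all genes and 20.3% of protein-coding genes. Both shares lie inside the interval, so at 32 genes the snRNA share could not be told from that of genes in general. The 8 genes were U1:21D, U1:95Ca, U2:34ABb, U4:39B, U5:63BC, U6:96Ab, U6:96Ac and 7SKa. Each of the 5 major spliceosomal RNAs was thus represented, by 2 of 5 U1 genes, 1 of 6 U2 genes, 1 of 3 U4 genes, 1 of 7 U5 genes and 2 of 3 U6 genes. Of the 4 minor spliceosome genes 0 had an IDR summit, and with so few genes the upper limit (3 counts) is 75%. The 8 genes shared 9 summits, because U1:21D and U1:95Ca had a pair each and U6:96Ab and U6:96Ac had 1 in common. Members that share a summit are not independent, and the interval covers counting error over genes alone.

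The pooled list placed a summit near 14 of 32 genes (43.8%, interval 26.4 to 62.3%), against 33.7% of all genes. Replicate 1 did so for 14 genes (43.8%, against 33.3% of all genes), replicate 2 for 14 (43.8%, against 38.4%) and replicate 3 for 16 (50%, against 40.6%). The mean was 14.7 ± 1.15 genes (SD, n = 3). The snRNA share stood above that of all genes in each of the 5 lists, but the pooled and IDR lists reuse the replicates' reads, the replicate lists share a control, and each interval holds the share of all genes. A summit in all 3 replicates was found at 7 genes (21.9%, interval 9.28 to 40.0%), slightly below the 24.4% of all genes. At 9 genes a summit was found in exactly 1 replicate, and at 9 genes in no list. The shares of all genes for these 2 counts were not taken, so they are not read as high or low.

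**Figure D2:**
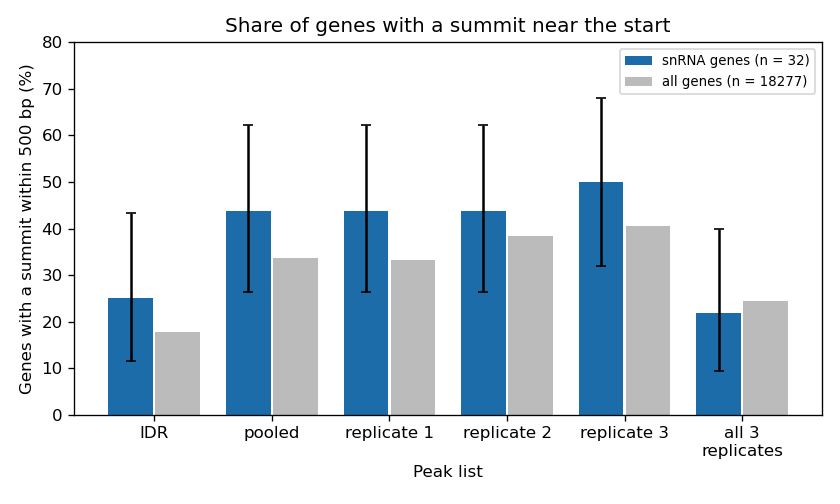
Percent of genes with a summit within 500 bp of the start (vertical axis) in each peak list and in all 3 replicates together (horizontal axis), for the 32 snRNA genes (blue, error bars are exact binomial 95% intervals) and all 18277 genes (grey). The snRNA bar is at 25% against 17.7% in the IDR list, and in every list the grey bar ends inside the blue bar's interval.

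The strong peaks of each replicate fell at 7 or all of the 8 genes with an IDR summit, and 6 genes had one in all 3 replicates. The share of all genes with a strong peak in all 3 was not counted. Among the 8188 strongest summits of each replicate, 7 snRNA genes had one in replicate 1 (21.9%, against 17.4% of all genes), 7 in replicate 2 (21.9%, against 19.5%) and 8 in replicate 3 (25%, against 20.7%). The gene lacking in replicate 1 was U5:63BC and the gene lacking in replicate 2 was U4:39B. None of the 24 genes outside the IDR list had a summit among the 8188 strongest of any replicate. Their best replicate rank was 9734, at U1:82Eb in replicate 3. The IDR list is drawn from these same reads, so the overlap is no separate support for the list.

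**Figure D3:**
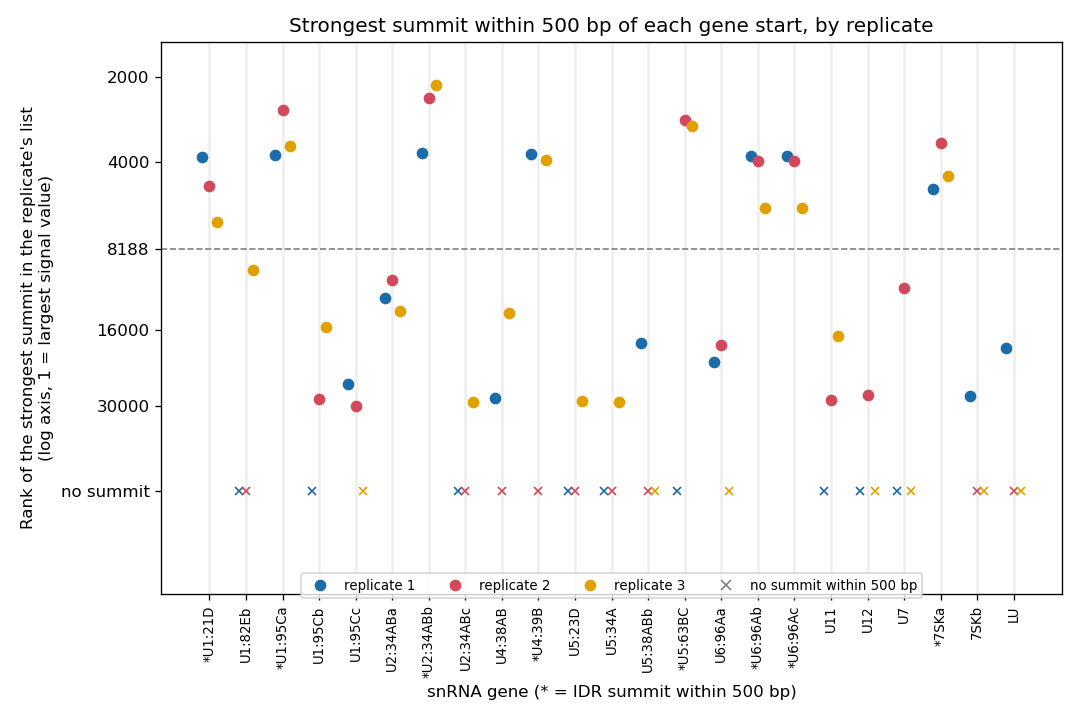
Rank of the strongest summit within 500 bp of each snRNA gene start in the 3 replicate lists (vertical log axis, 1 is the largest signal value, crosses mark replicates without a summit) for the 23 genes with a summit in any list (horizontal axis, stars mark IDR genes). All points of starred genes lie above the dashed line at rank 8188 and all other points lie below it, with 1 cross for U4:39B and 1 for U5:63BC among the starred genes.

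U1 genes encode the RNA that recognises the start of introns. U1:21D (FBgn0003916, 2L, 901491 to 901654, minus strand) had IDR summits 155 bp downstream of its start, inside the gene, and 46 bp upstream, at ranks 4500 and 7680. The inner summit was found at 125, 106 and 159 bp in replicates 1, 2 and 3 (130 ± 26.9 bp, SD, n = 3), at ranks 3858, 4870 and 6601. The upstream summit was found 81 bp upstream in replicate 1 and 47 bp upstream in replicate 3, at ranks 18669 and 15496, and replicate 2 had none within 100 bp of it. The inner summit was the stronger of the pair in replicates 1 and 3 and was matched in more replicates, while the spread in position was similar (SD 24 bp over 2 replicates for the upstream summit).

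U1:95Ca (FBgn0004185, 3R, 23859467 to 23859630, minus strand), which lies 30422 bp from the next annotated start, showed the replicates resolving 1 region differently. The pooled and IDR lists had summits 145 bp downstream and 60 bp upstream of the start, at ranks 3275 and 5240. Replicate 2 had the same pair, at 159 bp downstream and 42 bp upstream, at ranks 2606 and 4354. Replicates 1 and 3 had a single summit between them, 10 and 26 bp downstream of the start, at ranks 3800 and 3528. The mean rank of the gene's strongest summit was 3311 ± 626 (SD, n = 3), so the replicates were near in strength and differed in position.

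The other 3 U1 genes are nearly the same in sequence but had weaker summits or none. Identity between U1 genes was 98.2 to 100% over the RNA and 51.4 to 59.7% over the 200 bp upstream. U1:82Eb had a summit in replicate 3 alone, 174 bp downstream of its start. U1:95Cb had one in replicate 2 (22 bp upstream, rank 28130) and one in replicate 3 (201 bp downstream, rank 15620). U1:95Cc had one in replicates 1 and 2 (17 and 56 bp upstream, ranks 25020 and 29956). The latter 2 genes lie in introns of CG34355. None of the 3 had a pooled summit.

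U2 genes encode the RNA that pairs with the branch point. U2:34ABb (FBgn0004192, 2L, 13215839 to 13216030, plus strand) had the strongest snRNA summit of the IDR list, at rank 2700 and 194 bp downstream of the start, which is 3 bp past the end of the gene. The replicates placed it at 196, 187 and 204 bp (196 ± 8.5 bp, SD, n = 3), at ranks 3740, 2372 and 2138. This was the closest agreement in position among the IDR summits at snRNA genes that matched in all 3 replicates.

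Other U2 copies differed from it in strength. U2:34ABa had pooled summits 116 bp downstream and 90 bp upstream, at ranks 10416 and 18252, outside the IDR list. Its inner summit matched in all 3 replicates, at 165, 102 and 172 bp and ranks 12271, 10560 and 13687. In replicates 1 and 3 that summit lay nearer the start of CG15482, 137 and 130 bp away. U2:34ABc, whose RNA is 100% identical to that of U2:34ABb, had a single weak summit in replicate 3 (288 bp upstream, rank 29034), and this same summit lies 1 bp downstream of the start of U5:34A. U2:14B, U2:38ABa and U2:38ABb had no summit in any list.

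**Figure D4:**
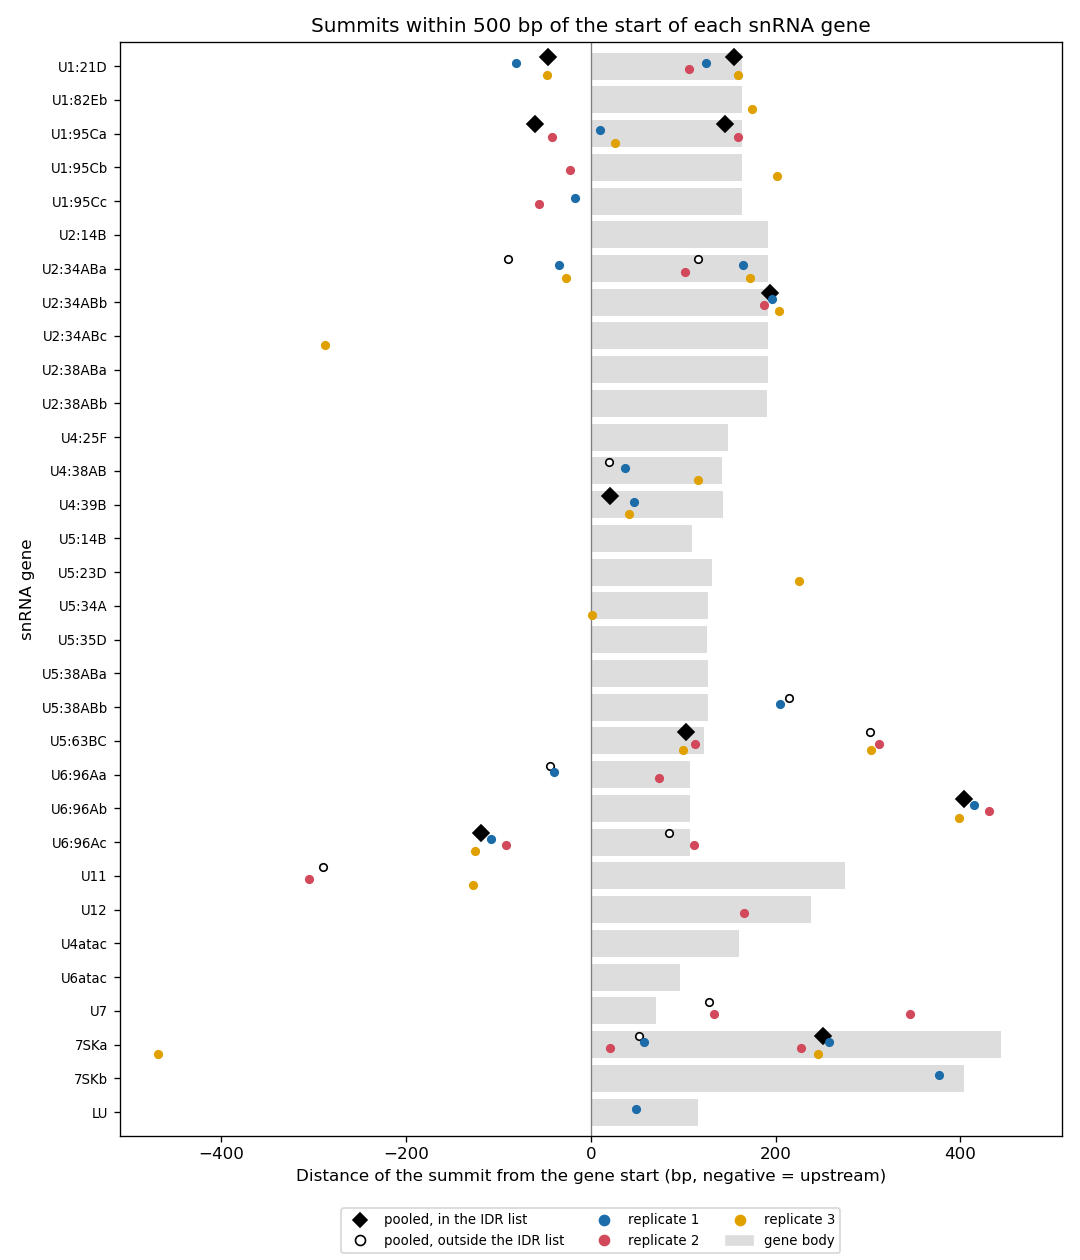
Position of every summit within 500 bp of each snRNA gene start (horizontal axis, bp, negative is upstream) with 1 row per gene. Black diamonds are pooled summits in the IDR list, open circles are pooled summits outside it, coloured points are the 3 replicates and grey bars are gene bodies. Of the 9 IDR summits 5 lie inside the gene, and U2:34ABb shows 4 markers within the 187 to 204 bp range.

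U4 RNA carries U6 into the spliceosome in base-paired form. U4:39B (FBgn0003930, 2L, 21215036 to 21215178, minus strand, in an intron of Atg18b) was the single IDR gene that lies inside another gene. Its IDR summit was 21 bp downstream of the start, at rank 4074. Replicate 1 had it at 47 bp (rank 3743) and replicate 3 at 41 bp (rank 3934), whereas the nearest summit of replicate 2 lay 3808 bp away. The locus was thus among the strong peaks of replicates 1 and 3 and had no summit within 500 bp in replicate 2. U4:38AB had a weak pooled summit 20 bp downstream of its start (rank 23151), with summits at 37 bp in replicate 1 and 116 bp in replicate 3. U4:25F, 73.8% identical to each of the others, had no summit in any list.

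U5 RNA holds the exon ends together. U5:63BC (FBgn0003938, 3L, 3090801 to 3090923, plus strand) had an IDR summit 103 bp downstream of its start, inside the gene, at rank 3445. Replicate 2 had it at 113 bp (rank 2833) and replicate 3 at 100 bp (rank 2988), and the nearest summit of replicate 1 lay 5272 bp away. A second, weaker pooled summit at 302 bp (rank 10814) was found at 312 and 303 bp in the same 2 replicates. Of the other 6 U5 genes, U5:38ABb had a pooled summit 215 bp downstream (rank 22883), which replicate 1 alone matched at 205 bp. U5:23D and U5:34A had a summit in replicate 3 alone, at ranks 28570 and 29034, and U5:14B, U5:35D and U5:38ABa had none.

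U6 RNA forms the catalytic core with U2, and its 3 genes stand in a row on 3R. The IDR summit of this cluster lay between the second and the third gene, 298 bp past the end of U6:96Ab (FBgn0004189) and 119 bp upstream of the start of U6:96Ac (FBgn0004190), at rank 4132. From the U6:96Ac start the replicates placed it 108, 92 and 125 bp upstream (108 ± 16.5 bp, SD, n = 3), at ranks 3812, 3994 and 5840. It is therefore 1 peak counted for 2 genes, and U6:96Ac is the nearer. U6:96Ac also had a weaker pooled summit 85 bp downstream (rank 14202), which replicate 2 alone matched at 112 bp. U6:96Aa, in an intron of Esyt2, had a pooled summit 44 bp upstream (rank 19853) that replicate 1 alone matched at 40 bp, and replicate 2 had one 74 bp downstream.

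Of the minor spliceosome genes, U11 and U12 carried weak summits. U11 had a pooled summit 290 bp upstream (rank 19608) that replicate 2 matched at 305 bp (rank 28553), and replicate 3 had one 128 bp upstream (rank 16800). U12 had a summit in replicate 2 alone, 166 bp downstream (rank 27269). U4atac and U6atac had none. None of these 4 genes shares a word of 50 bases with another place in the genome within 500 bp of its start.

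Of the genes outside the spliceosome, 7SKa was the strongest. 7SKa (FBgn0065099, 3R, 7474553 to 7474996, minus strand), an RNA made by polymerase III that holds P-TEFb inactive, had an IDR summit 251 bp downstream of its start, inside the gene, at rank 4129. The replicates placed it at 258, 227 and 246 bp (244 ± 15.6 bp, SD, n = 3), at ranks 5013, 3422 and 4492. A second pooled summit at 52 bp (rank 16594) was matched at 58 bp in replicate 1 and 21 bp in replicate 2. 7SKb, 46.9% identical to 7SKa over the gene and 46.2% over the 200 bp upstream, had a summit in replicate 1 alone, 377 bp downstream (rank 27419). U7, in an intron of Eip63E, had a pooled summit 128 bp downstream (rank 20598) that replicate 2 alone matched, at 133 bp (rank 11339). LU had a summit in replicate 1 alone, 49 bp downstream (rank 18507).

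Summits at snRNA genes lay inside the gene or on either side of it. Of the 9 IDR summits 5 were inside a gene, 3 upstream and 1 downstream. For the gene's strongest IDR summit the place was inside for 5 of the 8 genes. Taking the nearest summit of each gene, the median position was 62 bp downstream of the start over 8 genes in the IDR list and 36.5 bp downstream over 14 genes in the pooled list. In the replicate lists the median was 66.8 ± 23.2 bp downstream (SD, n = 3). The snRNA genes here include U6:96Ab, whose summit 404 bp downstream lies nearer U6:96Ac. At protein-coding genes the median position in the IDR list was 135 bp upstream, and 82.1% of the nearest summits were upstream, against 3 of 8 at snRNA genes. In the pooled list the median was 99 bp upstream, with 71.7% upstream, against 5 of 14 at snRNA genes. These differences were not tested. tRNA genes had a median of 45 bp upstream in the IDR list, with 57.1% upstream, and 28 bp downstream in the pooled list, with 44.8% upstream. snoRNA genes had a median of 178 bp upstream in the IDR list, with 84.6% of nearest summits upstream, and 118 bp upstream in the pooled list, with 69.8% upstream.

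Pairs of summits at 1 gene stood near the smallest spacing the lists hold, except for 1 pair at 7SKa. No pair of summits in any of the 5 lists was closer than 199 bp. The 6 pairs at snRNA genes in the pooled list were 199 to 206 bp apart, and those in replicates 1 and 2 were 199 to 212 bp apart. In replicate 3 the pairs at U1:21D, U2:34ABa and U5:63BC were 206, 199 and 203 bp apart and the pair at 7SKa 714 bp. Across the genome 12.4% of neighbouring pooled summits were at most 250 bp apart. A gene of 164 bp such as U1 could thus hold at most 1 summit inside it.

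Replicate matching at snRNA genes varied from summit to summit. Of the 9 IDR summits, 5 had a summit within 100 bp in all 3 replicates, 3 in 2 replicates and 1 in a single replicate. Of all IDR summits within 500 bp of any gene start, 86.0% matched in all 3. Of the 19 pooled summits at snRNA genes 6 matched in all 3 replicates, 7 in 2 and 6 in 1, and of all pooled summits near gene starts 47.6% matched in all 3. These shares were not compared by a test. The IDR summits that did not match in all 3 were the upstream summit of U1:21D, the inner summit of U1:95Ca, U4:39B and U5:63BC. At U1:95Ca the single summits of replicates 1 and 3 lay 135 and 119 bp from the inner one. They lay 70 and 86 bp from the upstream one, which is among the 5 only through them. With 250 bp allowed, 11 of the 19 pooled summits matched in all 3, and the share of all pooled summits near gene starts was not counted.

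The genes differ in how much sequence they share with other places. Words of 50 bases present more than once in the genome made up 100% of the U1:21D, U1:95Ca, U2:34ABb and U6 genes and 42.6% of U4:39B. Within 500 bp of the start on either side, such words made up a median of 5.2% over the 32 genes (range 0 to 53.2%). In the same window 16586 of all 18277 genes had none, against 9 of the 32 snRNA genes and 1 of the 8 with an IDR summit. The 500 bp upstream held no repeated word at 7 of the 8 IDR genes, with 8.65% at U6:96Ac. The 4 genes above 20% were U2:34ABc, U2:38ABa, U2:38ABb and U5:34A, and 0 of them had an IDR or pooled summit. Of the 19 genes with some repeated words but at most 20%, 7 had an IDR summit, and of the 9 with none, 1 had (7SKa). The sources do not say where reads from such copies were placed. The part of repeated sequence in the summits' presence and position was not tested.

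**Figure D5:**
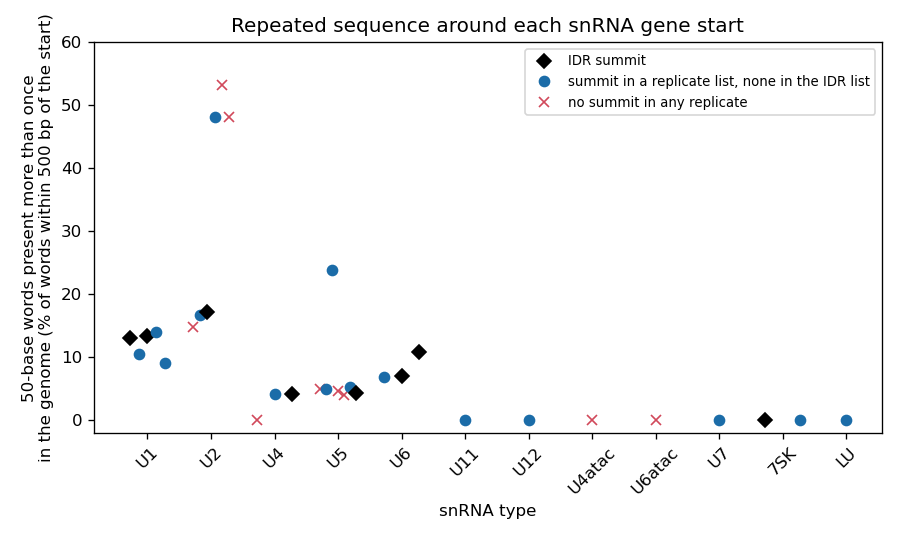
Percent of the 50-base words within 500 bp of each snRNA gene start that occur more than once in the genome (vertical axis), by snRNA type (horizontal axis), 1 marker per gene. Black diamonds are genes with an IDR summit, blue circles have a summit in a replicate list but none in the IDR list, and red crosses have none in any replicate. The 3 genes near or above 48% are U2 copies without an IDR summit, and the diamonds lie between 0 and 17.2%.

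Surroundings also differed. Of the 17 genes inside another gene 1 had an IDR summit and 6 a pooled one, whereas of the 15 outside other genes 7 had an IDR summit and 8 a pooled one. The 7 include neighbouring U6 genes that share a summit, so they are not independent. This split was seen after the lists were counted and was not tested. The shares of all genes inside and outside other genes with a summit were not counted. The split is therefore not read as particular to snRNA genes. In the intronic cluster of sick, which holds 5 U2, U4 and U5 genes, 0 had an IDR summit and 2 had a weak pooled one. GC content within 250 bp of the start on either side was 31.7 to 46.9% (median 40.7%) at genes with an IDR summit and 29.9 to 53.3% (median 38.7%) at the others, so the ranges overlap, and its part was not tested.

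Protein genes of the snRNA pathway were counted in the same way. Of 52 listed genes 12 had an IDR summit within 500 bp of the gene start (23.1%), near the 20.3% of protein-coding genes. Integrator, which cuts the ends of polymerase II snRNAs, had 4 of 14, the Sm ring 1 of 7, the particle proteins 2 of 11, the SMN assembly complex 1 of 7 and SNAPc 0 of 3. The 7SK particle had 1 of 3, and the genes of export, import and the cap had 1 of 3. Polymerase III factors had 2 of 4, Bdp1 (78 bp upstream) at IDR rank 256 and Brf (156 bp upstream) at rank 357, the strongest of the list. Next were IntS6 (386 bp upstream, rank 523), IntS11, the Integrator endonuclease (134 bp upstream, rank 771), and SNRPG, an Sm protein gene (337 bp upstream, rank 1230). SNRPG was listed as SmG, a name that RefSeq gives as a synonym of both SNRPG and smg, and the Sm ring count rests on taking the former. Prp31 (219 bp upstream, rank 1471), snRNP-U1-C (139 bp upstream, rank 1486), Snup (125 bp upstream, rank 2429), IntS10 (111 bp upstream, rank 2653) and Smn (15 bp downstream, rank 4943) completed the strongest 10. For 7 of the 12 the summit lay nearer the start of another gene, among them Bdp1 (CG6565), Brf (sds22), IntS6 (Rtel1), IntS11 (Wdr24) and SNRPG (mthl1). The summits of 10 of the 12 lay upstream, at 78 to 386 bp.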

How the data were processed

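Peaks of GFP-tagged CG7839 were measured by ChIP-seq in 3 replicates. The authors made each replicate list from that replicate's alignments and a common control, the pooled list from all 3 alignments and the control, and the IDR list from the replicate and pooled lists, on dm6, as the text deposited with each sample records. The signal value of each peak is a score of the authors with no stated scale, and served here for ordering peaks inside 1 list and nothing else. The sources used here give no aligner, caller, threshold or read filter.

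Summits were the interval start plus the offset. Between 2 and 7 per list lay past their interval and were put on its last base. No summit of 1 replicate had the same position and value in another. Gene starts came from Ensembl release 115, without transposable elements, and sequence from the RefSeq assembly. A gene had a summit when one lay within 500 bp of its start, and summits within 100 bp were matched. Shares have exact Clopper-Pearson 95% intervals (scipy 1.17.1), which cover counting error only. Identity came from global alignment without a penalty for mismatches (Biopython 1.88). The identity of unrelated sequences under this measure was not taken, so low values are not read as conservation. The distance search was tested on simulated data. No p-value was computed, since there is 1 group and no set test was used.

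The members, gene lists and motifs were chosen with earlier results of these data known. The pattern ATTCNCAA and the TATA window were added after the promoters were seen. All snRNA genes with an IDR or pooled summit were to be named, and up to 10 pathway genes by rank. Others are named to account for every member. Of the pathway genes 5 were matched through another symbol. Alternatives were windows of 250 and 1000 bp, the upper 4094 IDR peaks, nearest starts alone, the 8188 strongest replicate peaks, other matching distances (50 and 250 bp), 50% reciprocal overlap, and leaving out each replicate.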

Additional observations from a re-analysis of the deposited data

How the results depend on the processing

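The count of 8 snRNA genes with an IDR summit was 6 with a 250-bp window and 10 with 1000 bp, beside 12.9% and 23.0% of all genes, 7 with nearest starts alone (13.2% of all genes) and 4 among the upper 4094 IDR peaks, where 10.6% of all genes had one. Requiring a match in both other replicates when 1 was left out gave 6 to 7 genes. The 14 genes with a pooled summit became 12 with 250 bp (25% of all genes), 16 with 1000 bp (40.6%) and 13 with nearest starts alone. The mean of 14.7 genes per replicate fell to 7.33 when the 8188 strongest summits were used. The 7 genes with a summit in all 3 replicates became 9 to 10 with 2 replicates and 6 to 9 under the other windows and the strongest summits. Shares of all genes were not counted for these settings of the 7 genes. Nor were they for the 13 pooled genes or the 6 to 7 IDR genes above. None of these counts is read as high or low. The median position of 36.5 bp downstream was 122 bp with the strongest summit per gene, and 42, 88 and 70.5 bp in replicates 1, 2 and 3, always downstream. The 6 pooled summits matched in all 3 replicates became 11 within 250 bp, 4 within 50 bp, 6 by 50% reciprocal overlap and 7 to 10 when 1 replicate was left out, the highest without replicate 2. For these settings the shares of all pooled summits near gene starts were not counted. The 12 of 52 pathway genes became 5 with nearest starts alone (13.2% of all genes), because neighbouring genes share summits. They became 9 among the upper 4094 IDR peaks (10.6% of all genes), 9 with 250 bp (12.9%) and 13 with 1000 bp (23.0%). All 52 are protein-coding, whereas these shares include non-coding genes. Shares of protein-coding genes under these settings were not counted, so the pathway counts are not read as high or low. The cause of the other changes was not tested. Depth is unknown, so a missing summit does not show that signal was absent. No paired analysis was possible because there is 1 group.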
